A study of Mus musculus with 6 samples.

Results

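A small number of naive-like CD4 T cells in these mouse spleens carried many transcripts of interferon-stimulated genes. They are called interferon-high cells here, and 517 of them were found among 38073 called cells of 6 libraries. The cells were chosen by their own RNA. A cell first had to hold at least 200 genes, at most 12000 UMIs (tags that each mark 1 captured RNA molecule), at most 5% of UMIs from mitochondrial genes and at least 10% from ribosomal protein genes. It then had to lack any UMI of Foxp3 (regulatory T cells), Cd44, S100a4 and Ccl5 (activated and memory T cells), Zbtb16 (innate-like T cells), Cd79a (B cells) and C1qa, C1qb and C1qc (macrophages), which left 16890 gated cells. Of these, the interferon-high cells held 4 or more UMIs of Ifit1, Ifit3 and Isg15 together. The 13615 gated cells with no UMI of the 3 genes are called interferon-zero cells, and the 2758 gated cells with 1 to 3 UMIs lay in between.

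The libraries were 10x Genomics 5′ single-cell RNA-seq libraries of CD4 T cells, sorted as CD3+ CD4+ B220- NK1.1- cells from the spleens of 3 H2-O KO (knock-out, KO in what follows) and 3 H2-O WT (wild-type, WT) mice of the C57BL6/J strain, with 1 library per mouse. The mice were unimmunized, and the study's methods give those of both genotypes as female. Their age was 8 weeks by the labels and 10 weeks by the study's methods. H2-O is an MHC class II-like protein of B cells, thymic epithelium and some dendritic cells that acts together with the peptide loading factor H2-DM in choosing which peptides class II molecules present. Since the methods describe the KO line as made earlier and kept in house and the WT mice as bought in before they were bred there, genotype and breeding origin cannot be told apart, and the deleted part of the gene was not given in the sources used here.

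Type I interferons bind the receptor formed by Ifnar1 and Ifnar2, whose kinases Jak1 and Tyk2 activate STAT proteins. With Irf9 these form a complex that binds the interferon-stimulated response element in the promoters of antiviral genes, among them the Ifit, Oas and Isg15 genes. Interferon gamma acts through a different element and drives guanylate-binding proteins and antigen presentation, and most of these genes answer to both kinds of interferon. Naive T cells respond to interferon without being activated through the T cell receptor.

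The promoters of the 3 genes that chose the cells, and of Rsad2, Oas3 and Slfn5 (described below), are shown because the response element can be read in them. Each line gives bases 200 to 51 before the RefSeq transcription start on the gene's own strand, with matches to GAAANNGAAA on either strand in capitals. The motif is a pair of GAAA half-sites with 2 bases between them, and on the opposite strand the half-sites read TTTC. The windows lie in GRCm38.p6 at chr19:34640689-34640838 on the plus strand for Ifit1, chr19:34583329-34583478 on the plus strand for Ifit3, chr4:156200869-156201018 on the minus strand for Isg15, chr12:26456503-26456652 on the minus strand for Rsad2, chr5:120777710-120777859 on the minus strand for Oas3 and chr11:82951902-82952051 on the plus strand for Slfn5.
Ifit1: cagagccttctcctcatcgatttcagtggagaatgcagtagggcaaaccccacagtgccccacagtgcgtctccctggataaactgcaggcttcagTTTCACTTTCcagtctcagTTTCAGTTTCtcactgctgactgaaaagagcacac
Ifit3: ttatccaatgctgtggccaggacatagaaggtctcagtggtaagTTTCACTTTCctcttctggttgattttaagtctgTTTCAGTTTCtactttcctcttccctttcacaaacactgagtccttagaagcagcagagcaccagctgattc
Isg15: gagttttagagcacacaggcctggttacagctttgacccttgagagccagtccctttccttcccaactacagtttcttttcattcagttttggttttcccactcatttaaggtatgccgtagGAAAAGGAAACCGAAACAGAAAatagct
Rsad2: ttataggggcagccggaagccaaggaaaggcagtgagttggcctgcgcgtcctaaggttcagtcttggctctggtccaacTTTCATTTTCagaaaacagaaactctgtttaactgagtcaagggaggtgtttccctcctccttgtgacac
Oas3: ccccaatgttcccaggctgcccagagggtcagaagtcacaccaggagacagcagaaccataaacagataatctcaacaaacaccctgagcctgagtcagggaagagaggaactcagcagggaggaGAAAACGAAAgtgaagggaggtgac
Slfn5: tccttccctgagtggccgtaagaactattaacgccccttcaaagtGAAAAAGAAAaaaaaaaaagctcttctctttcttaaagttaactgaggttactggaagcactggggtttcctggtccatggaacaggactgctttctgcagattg

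Ifit1 and Ifit3 each held 2 matches in these windows and Isg15 held 3 that overlap each other, while Rsad2, Oas3 and Slfn5 held 1 each. Over the RefSeq promoters from 250 bases before to 50 bases after the start, 3.99% of the 27025 genes of the table held GAAANNGAAA on either strand. Among the genes that could be compared between interferon-high and interferon-zero cells and had a promoter in the table, the share was 3.93% (280 of 7123). It was 29.0% (71 of 245) among genes called higher in interferon-high cells and 55.1% (27 of 49) among those at least 4-fold higher, against 17.2% (20 of 116) among those less than 2-fold higher and 5.26% (2 of 38) among genes called lower. A second motif, TTCNNNGAA, the form of the element that interferon gamma acts through, was read in 14.7% of the genes called higher, 8.14% of those compared and 9.55% of all genes of the table. It reads the same on both strands and may share bases with the first. The promoters of Irf7, Cmpk2, Oasl1 and Isg20 held no match to GAAANNGAAA in the 300 bases read. A match is a description of the letters and does not show binding.

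Total depth over called cells ran from 9973193 UMIs (WT replicate 1) to 40237962 UMIs (KO replicate 1). In KO replicates 1 to 3 there were 5559, 2548 and 3482 gated cells, of which 179, 130 and 69 were interferon-high. In WT replicates 1 to 3 there were 924, 2661 and 1716 gated cells, of which 16, 66 and 57 were interferon-high. The summed interferon-high cells held 934136, 724522 and 334858 UMIs in KO and 99293, 397192 and 338021 UMIs in WT, so WT replicate 1 gave the least precise values. Cells that passed the other filters but were removed by the ribosomal protein minimum made up 3.38%, 8.09% and 16.9% in KO and 47.9%, 22.2% and 46.3% in WT. Every KO library thus lay below every WT library in this share, which bears on each comparison of the genotypes below. Each pair of libraries shared between 21 and 99 cell barcodes.

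The genotype labels could be checked only weakly in these cells. H2-Oa, the alpha chain of H2-O (chr17:34092340-34095234, GRCm38), had 4, 2 and 2 UMIs in interferon-high cells of KO replicates 1 to 3 and 0, 0 and 6 in WT replicates 1 to 3. In interferon-zero cells its level was 3.97, 3.86 and 3.62 CPM (counts per 1000000 UMIs of the same cells) in KO and 3.36, 4.69 and 5.20 CPM in WT, and the genotypes overlapped. T cells hardly express this gene. In kept cells with a Cd79a or C1q UMI, where B cells that use it would lie, it stood at 14.3, 22.03 and 8.35 CPM in KO and 46.7, 42.4 and 100.3 CPM in WT, from between 3 and 27 UMIs a library, and every KO library lay below every WT library. The beta chain gene H2-Ob had levels of 156, 152 and 100.2 CPM in KO and 117, 69.8 and 78.0 CPM in WT of the same cells, where the genotypes overlapped.

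The interferon-high share of gated cells varied more between mice of 1 genotype than between the means of the genotypes. It was 3.22% (95% Wilson interval 2.79 to 3.72), 5.10% (4.31 to 6.03) and 1.98% (1.57 to 2.50) in KO replicates 1 to 3. In WT replicates 1 to 3 it was 1.73% (1.07 to 2.79), 2.48% (1.95 to 3.14) and 3.32% (2.57 to 4.28). These intervals cover counting error only. The mean was 3.43% ± 1.57 (SD, n = 3 mice) in KO and 2.51% ± 0.795 (SD, n = 3) in WT, and the genotypes overlapped (p = 0.5 by a two-sided exact permutation test, which with 3 mice a side cannot go below 0.1). The difference of 0.923 percentage points depended on single libraries, at 0.0896 without KO replicate 2, 0.534 without WT replicate 1 and 1.65 without KO replicate 3, and it was 1.68 without the ribosomal protein minimum.

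**Figure D1:**
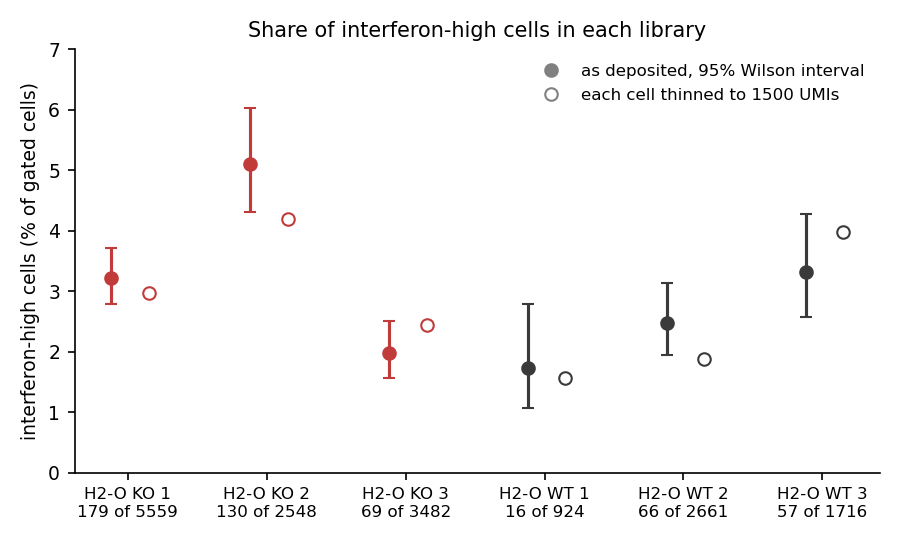
Interferon-high cells as a percent of gated cells (y axis) in each of the 6 libraries (x axis). Filled points are the deposited counts at a gate of 4 UMIs with 95% Wilson intervals, and open points are cells thinned to 1500 UMIs at a gate of 2 UMIs. The shares as deposited run from 1.73% in WT replicate 1 to 5.10% in KO replicate 2, and the genotypes overlap under both readings.

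Depth can move such a share, since a deeper cell more easily reaches 4 UMIs. Thinned to 1500 UMIs per cell, with 1267 shallower cells left out and a gate of 2 UMIs, the shares were 2.97%, 4.19% and 2.44% in KO and 1.56%, 1.88% and 3.98% in WT (two-sided exact permutation test, p = 0.5). The median interferon-high cell held 5081, 5479 and 4525 UMIs in KO and 6319, 5949.5 and 5648 UMIs in WT. Every KO library thus lay below every WT library in the depth of its interferon-high cells (p = 0.1 by a two-sided exact permutation test, its minimum here), which bears on each comparison of the genotypes below and whose part in them was not tested. Cells set aside for a UMI of an excluded gene reached 4 gate UMIs in 4.09%, 6.05% and 4.71% of cases in KO and 2.32%, 2.98% and 6.55% in WT. In each library this share lay above that of its gated cells, so the response was not particular to the naive-like gate. The part of depth in this was not tested.

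Among the genes of the gate, Isg15, a ubiquitin-like protein that is joined to other proteins, was read in 92.4% to 97.8% of the interferon-high cells of a library and gave 43.6% to 60.9% of their gate UMIs. Ifit1, which binds foreign RNA, and its relative Ifit3 were read in between 63.8% and 93.8% of the cells. The median interferon-high cell held 6, 7 and 6 gate UMIs in KO and 9, 6 and 11 in WT, and the highest held 45. These values follow from the choice of the cells.

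The number of cells fell off around the threshold without a gap. There were 2082 gated cells with 1 gate UMI, 484 with 2, 192 with 3 and 123 with 4, and 156, 128 and 110 cells with 5 to 7, 8 to 12 and 13 or more. Usp18, a protease that removes Isg15 and dampens interferon receptor signalling, averaged 70.7 CPM over the libraries in the cells just outside the gate (3 UMIs) and 153 CPM just inside it (4 UMIs). WT replicate 1 held 348 CPM at 4 UMIs, from 5 cells, and pooled over the libraries Usp18 stood at 72.4, 123 and 130 CPM at 3, 4 and 5 to 7 UMIs. Rtp4, an interferon-stimulated chaperone protein, averaged 175 and 240 CPM in the same cells. Irf7, the transcription factor that amplifies interferon production, averaged 215 and 350 CPM, and 343 CPM at 5 to 7 UMIs. Summed over 134 interferon response genes outside the gate (6 lists of antiviral effectors, interferon-induced families, other interferon-stimulated genes, nucleic acid sensors, STAT and IRF factors and feedback genes), the level went from 9129 CPM at 0 gate UMIs through 10479, 13651 and 15863 CPM at 1, 2 and 3 UMIs to 18800 CPM at 4 and 36261 CPM at 13 or more. These are sums over the cells of a bin and do not show how single cells within it differ. The interferon-high cells are a range cut from a count, with 192 cells just below the threshold. The summed level of MHC class I and immunoproteasome genes moved from 10026 to 14902 CPM between the ends of this range and that of the naive genes from 9980 to 8983 CPM.

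**Figure D2:**
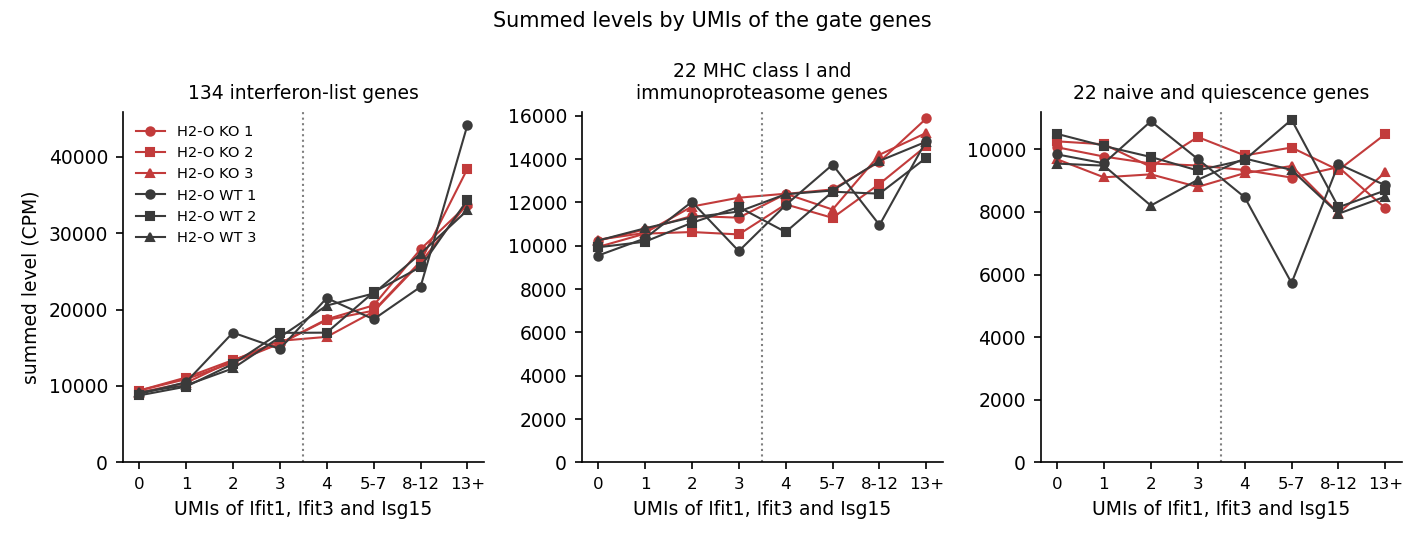
Summed CPM (y axes) of 134 interferon response genes, 22 MHC class I and immunoproteasome genes and 22 naive genes in gated cells by their UMIs of Ifit1, Ifit3 and Isg15 (x axis). Circles, squares and triangles are replicates 1, 2 and 3, red for KO and dark for WT, and the dotted line marks the gate. The interferon genes average 9129 CPM at 0 gate UMIs and 36261 CPM at 13 or more, and single libraries, such as WT replicate 1, do not rise evenly in between.

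Interferon-high cells were set against interferon-zero cells of the same mouse, by UMIs summed per library and edgeR's quasi-likelihood test. The median interferon-high cell was the deeper in all 6 libraries, since the median interferon-zero cell held 4720, 4923 and 4031 UMIs in KO and 4883, 5574 and 4537 UMIs in WT, and with interferon-zero cells matched in UMIs per cell 320 genes were called in place of 357. Of 7 nuclear-retained and low-RNA transcripts compared, 3 were called lower (Neat1, Gm26917 and Gm42418, log2 fold changes -0.53, -0.33 and -0.16) and 0 higher, and their part in the differences was not tested. Because the gate made these groups, the counts below describe the cells and are no test of them, and a gene that passed the minimum of counts through the interferon-high cells alone had to differ. Of 8973 genes, 305 (3.40%) were called higher and 52 (0.580%) lower at an adjusted p under 0.05. Of the 305 genes, 246 were higher in all 6 libraries, and of the 52 genes, 38 were lower in all 6. The rises were larger than the falls. There were 159 genes at least 2-fold, 65 at least 4-fold and 21 at least 8-fold higher, and 3 genes at least 2-fold lower. The median log2 fold change was 1.02 over the genes called higher, -0.36 over those called lower and -0.03 over all genes compared. The 134 listed interferon response genes gave 110 that could be compared, and 97 of them were called higher and 0 lower, with a median log2 fold change of 1.76.

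The genes used to name the cells beyond the gate stood far apart between the states in every mouse. Usp18 stood at 203, 189 and 251 CPM in interferon-high cells of KO replicates 1 to 3, and 262, 214 and 213 CPM in those of WT replicates 1 to 3. In interferon-zero cells it stood at 15.7, 14.5 and 18.1 CPM and at 8.12, 10.0 and 15.8 CPM. No library of one state overlapped the other, and the log2 fold change was 3.93 (standard error 0.11). Rtp4 stood at 295, 304, 281, 403, 415 and 343 CPM in interferon-high cells and at 25.7 to 33.6 CPM in interferon-zero cells (log2 fold change 3.43, standard error 0.09). Irf7 stood at 496, 422, 412, 604, 390 and 503 CPM and at 36.4 to 60.1 CPM (log2 fold change 3.12, standard error 0.08). With cells thinned to 1500 UMIs, an Irf7 UMI was found in 49.96% of interferon-high, 7.38% of interferon-zero and 10.8% of set-aside cells, taken as the mean over 6 libraries.

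The antiviral effectors had large fold changes. All 19 compared genes of the 24 listed in the IFIT, OAS and Mx group were called higher, with a median log2 fold change of 3.00, and no Mx gene was among them. Rsad2, which encodes viperin, a maker of a chain-ending nucleotide, stood at 72.8, 88.3 and 155 CPM in interferon-high cells of KO and at 111, 133 and 210 CPM in those of WT. In interferon-zero cells it stood between 0.405 and 2.12 CPM, from 5 to 27 UMIs a library. The states did not overlap, and the log2 fold change was 6.51 (standard error 0.21). Cmpk2, a nucleotide kinase next to Rsad2 in the genome, followed at 4.44, then Oasl1, an OAS-like translational regulator, at 4.25. Oas3 and Oas2, synthases of the messenger that activates RNase L, stood at 3.96 and 3.90, and the exonuclease gene Isg20 at 3.89. Bst2, the tetherin that holds budding viruses at the cell surface, stood at 564 ± 132 CPM (SD, n = 6) in interferon-high and 85.3 ± 10.9 CPM (SD, n = 6) in interferon-zero cells. Zbp1, a sensor of Z-form nucleic acid, had a log2 fold change of 2.80. Oas3 reached 232 CPM in WT replicate 1 and between 93.2 and 154 CPM in the other libraries. Ifit3b had a log2 fold change of 6.60, but is a near-identical copy of the gate gene Ifit3, so reads may have been assigned between the copies and its value is uncertain.

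Of the Ifi, Ifitm, Slfn, Trim and Phf11 families, 28 of 29 compared genes (36 listed) were called higher, with a median log2 fold change of 1.98. Ifi27l2a, a mitochondrial interferon-induced gene, was the most abundant and stood at 2549 CPM on average in interferon-high cells, against 462 to 818 CPM in interferon-zero cells (log2 fold change 1.98). Ifitm3, which blocks virus entry at endosomes, had a log2 fold change of 4.99 from 23.9 to 70.5 CPM against 0.405 to 1.98 CPM. Its relative in name, Ifi27, stood at 72.8 to 146 CPM against 106 to 136 CPM, overlapped between the states (log2 fold change -0.27) and was not called. A further 33 of 35 compared interferon-stimulated genes of other kinds were called higher, with a median of 1.63. Shisa5, an interferon-induced membrane protein gene, was their most abundant member at 1749 CPM.

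Genes tied to interferon gamma were raised beside those of type I interferon. All 16 compared guanylate-binding and immunity-related GTPases, which attack the vacuoles of intracellular microbes, were called higher, with a median log2 fold change of 1.95. Gbp6 stood at 273, 228 and 182 CPM in interferon-high cells of KO and at 322, 360 and 299 CPM in those of WT, against 33.0 to 48.7 CPM in interferon-zero cells. Of 11 genes of this group with a promoter in the RefSeq table, 10 held GAAANNGAAA and 6 held TTCNNNGAA. Among all genes compared the shares were 3.93% and 8.14%, and which element acted was not tested. Of 22 listed interferon and IL-27 genes, 19 had no UMI in interferon-high cells. Over the 2828022 UMIs of these cells, a count of 0 allows a level of up to 1.06 CPM. Ifng was the highest of the rest at 6.004 CPM, and the list summed to 2.96 to 30.2 CPM per library, on 1 to 7 UMIs, against 2.75 to 12.004 CPM in interferon-zero cells.

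Signal carriers of the pathway were raised unevenly. Of 9 compared STAT and IRF genes, 7 were called higher, and the median log2 fold change was 1.08. Stat2 stood at 117, 82.8 and 86.6 CPM in KO and 90.6, 101 and 109 CPM in WT, against 16.1 to 25.1 CPM in interferon-zero cells (log2 fold change 2.36). Its partner Irf9 had a log2 fold change of 1.26. Irf1, a factor best known downstream of interferon gamma, had one of 0.33. Irf3, which is activated by phosphorylation rather than by a change in its level, was not called. Most receptor genes were not called. Of 16 compared receptor and JAK genes, Il2rg (the common cytokine chain) and Jak2 were called higher and Il7r (the IL-7 receptor) lower, while Ifnar1 had a log2 fold change of 0.21 and Ifnar2 of 0.11, neither called. Il7r stood at 151 CPM in WT replicate 1 and 195 CPM in WT replicate 3 but at 478 CPM in WT replicate 2, where it lay above the interferon-zero level of 414 CPM.

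Of 9 compared sensors of RNA and DNA, 4 were called higher, the RNA receptor Tlr7 and 3 helicases. The helicases Ifih1 (MDA5), Ddx58 (RIG-I) and Dhx58 (LGP2) had log2 fold changes of 3.00, 1.75 and 3.58. Mavs, the adaptor of the helicases, Aim2 and Tmem173 (STING) were not called. Of 9 compared genes for ISGylation and feedback, 6 were called higher, including Usp18 and Socs1, an inhibitor of JAKs that stood at 70.5 to 124 CPM against 46.0 to 73.7 CPM.

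**Figure D3:**
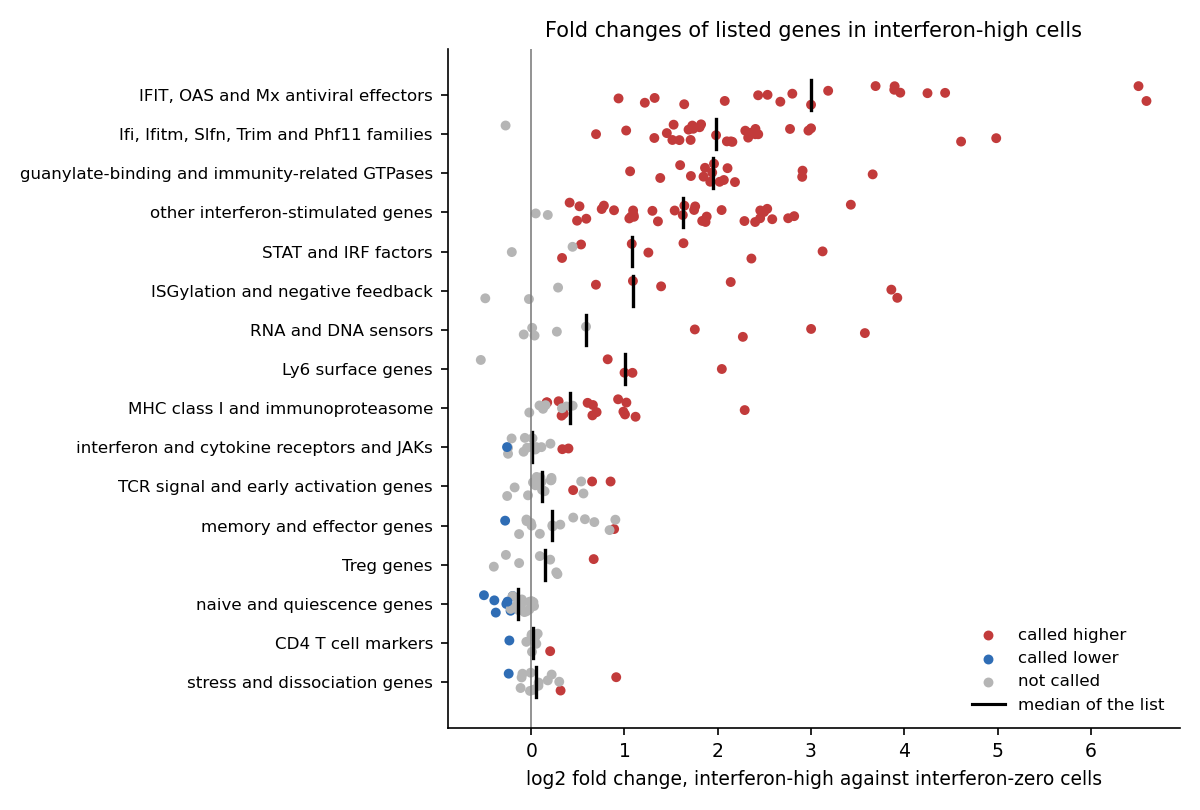
Log2 fold change of interferon-high against interferon-zero cells (x axis) for each compared gene of 16 gene lists (y axis), red where called higher, blue where called lower and grey where not called, with a bar at the list's median. The list of IFIT, OAS and Mx genes, in which no Mx gene was compared, has a median of 3.00 and the guanylate-binding GTPases 1.95, while the naive genes have one of -0.14.

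Antigen presentation genes had smaller fold changes than the antiviral genes. Of 22 MHC class I and immunoproteasome genes, 15 were called higher and 0 lower, with a median log2 fold change of 0.41. The classical heavy chain H2-K1 and the light chain B2m had small log2 fold changes of 0.17 and 0.29. The peptide transporter subunit Tap1 had one of 0.99, the proteasome subunit Psmb10 1.01, and the nonclassical chains H2-T23 (Qa-1) and H2-T24 1.02 and 2.29. H2-T24 stood at 53.3 to 108 CPM against 15.5 to 17.5 CPM in interferon-zero cells.

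At the cell surface, 4 of 5 compared Ly6 genes were called higher. Ly6a (Sca-1) stood at 648, 599 and 705 CPM in interferon-high cells of KO and at 796, 355 and 799 CPM in those of WT, against 83.6 to 189 CPM in interferon-zero cells (log2 fold change 2.04). Ly6c1, which also varies among naive cells, had a log2 fold change of 1.00. Cd69, which retains lymphocytes in tissue and answers both to the T cell receptor and to interferon, stood at 351 to 463 CPM against 204 to 266 CPM (log2 fold change 0.65). Of 19 compared genes of T cell receptor signalling and early activation, the others called were Icos and Bhlhe40, and the median log2 fold change was 0.12. Of the Treg list only Ctla4 was called, at 60.4 to 88.8 CPM against 30.3 to 69.4 CPM.

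The homing receptor gene Ccr7, which takes naive CD4 T cells into lymph nodes, stood at much the same level in both states. It stood at 565, 599, 729, 504, 539 and 527 CPM in interferon-high cells against 557 to 672 CPM in interferon-zero cells and was not called. At 1500 UMIs per cell a Ccr7 UMI was found in 48.7% of interferon-high, 53.4% of interferon-zero and 32.7% of set-aside cells. Of 22 naive and quiescence genes, 0 were called higher and 7 lower (Lef1, Tcf7, Klf3, Igfbp4, Actn1, Rflnb and Bcl2), with a median log2 fold change of -0.14. Tcf7, which keeps T cells naive, stood at 584 to 796 CPM against 802 to 893 CPM. The survival gene Bcl2 stood at 93.1, 110 and 89.6 CPM against 174, 148 and 145 CPM in KO and at 70.5, 121 and 142 CPM against 132, 131 and 164 CPM in WT, lower in all 6 mice. Among memory and effector genes, S100a6 was called higher with 171 CPM in WT replicate 1 against 20.7 to 68.0 CPM elsewhere, and Crip1 lower. Among genes of at least 20 CPM on average, the largest falls shared by all 6 libraries were those of 1700025G04Rik and 4632427E13Rik, with log2 fold changes of -0.73 and -0.68. Cd55, which shields cells from complement, had a log2 fold change of -0.61, the F-box gene Fbxo9 -0.68, N4bp2 -0.64 and the zinc finger gene Zbtb44 -0.59. Among 14 alternatives the calls of 1700025G04Rik, 4632427E13Rik, Fbxo9, N4bp2 and Zbtb44 held in 6, 7, 9, 5 and 8, and that of Cd55 in 13 (lost without KO replicate 1, as was that of Bcl2).

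**Figure D4:**
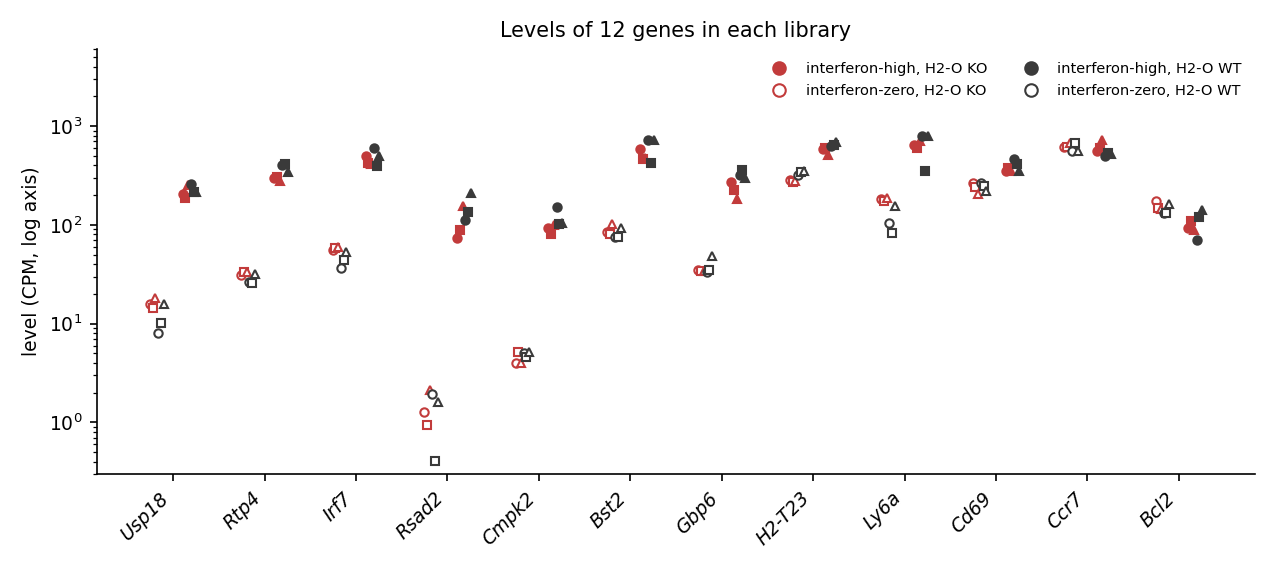
CPM on a log axis (y axis) of 12 genes (x axis) in interferon-high cells (filled) and interferon-zero cells (open) of each library, red for KO and dark for WT. Rsad2 and Usp18 separate completely, whereas the states overlap for Ccr7.

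The breadth of the response was also seen in single cells. Thinned to 1500 UMIs, with 1 interferon-high and 869 interferon-zero cells left out, the median interferon-high cell held UMIs of 24, 23 and 21.5 of the 134 listed genes in KO and of 25.5, 25 and 28 in WT. The median interferon-zero cell held 10 in all 6 libraries. Without thinning the medians ran from 44 to 56 and from 20 to 25.

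The label was checked against markers of CD4 T cells and of other cells. Cd3e stood at 776 and 753 CPM on average in interferon-high and interferon-zero cells and Cd4 at 243 and 250 CPM. Of 10 compared CD4 T cell markers, 1 was called higher and 1 lower in interferon-high cells, with a median log2 fold change of 0.02. Summed over 11 B cell markers, interferon-high cells held 303, 259 and 308 CPM in KO and 443, 252 and 266 CPM in WT, against 254 to 286 CPM in interferon-zero cells. Ighm was the most abundant of them, and Ms4a1 and Igkc had no UMI. The 13 macrophage markers summed to 131 to 237 CPM against 153 to 188 CPM, led by Ctsb, with Lyz2, Adgre1, Spic and Tyrobp at 0. Cd8a and the plasmacytoid marker Siglech were at 0 as well. Red cell markers were near 0 except in KO replicate 3, where they summed to 3867 CPM and 1 cell held 1390 UMIs of hemoglobin genes, listed or not, of its 3853. Median ribosomal protein shares were 31.7%, 32.8%, 28.2%, 30.3%, 30.1% and 30.4% in interferon-high cells and 32.5%, 33.3%, 31.2%, 30.9%, 32.2% and 28.6% in interferon-zero cells.

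The use of T cell receptor V segments was compared within each chain. Of 102 Trbv and Trav segments, 0 were called different between the states by edgeR's quasi-likelihood test (0%), and 5 had an unadjusted p under 0.05. Interferon-high cells held 4803 Trbv and 1922 Trav UMIs, which limits what could be detected for rare segments.

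Whether loss of H2-O altered the response was asked by comparing the interferon-high cells of the 3 KO and 3 WT mice. The gate used no genotype, but the ribosomal protein minimum removed 3.38% to 16.9% of cells in KO and 22.2% to 47.9% in WT. The cells compared had thus been filtered unevenly. Of 4847 genes, 6 (0.124%) were called higher and 17 (0.351%) lower in KO by edgeR's quasi-likelihood test, and 433 had an unadjusted p under 0.05. The count of 23 called genes became 9 without KO replicate 1 and 45 with no low-count filter. The genotypes did not overlap for any of the 23, nor for 736 of all 4847 genes compared, values that come from the same 6 sums. Few genes of any kind were called, at 0.475% of those compared, so the lack of a call says little about the interferon response genes. Of the 100 compared interferon response genes, 1 was called lower (Slfn5) and 0 higher. The log2 fold change of Usp18 was -0.08 (standard error 0.16, adjusted p = 0.937), of Rtp4 -0.38 (standard error 0.14, adjusted p = 0.369) and of Irf7 -0.09 (standard error 0.15, adjusted p = 0.907). The 100 genes had a median log2 fold change of -0.20 against 0.00 for all genes, and 78 of them lay below 0, against 49.2% of all genes. Summed over all 134 listed genes, the level in interferon-high cells was 24721, 24317 and 22762 CPM in KO and 28864, 24917 and 27590 CPM in WT, and every KO library lay below every WT library. Within each bin of 4, 5 to 7, 8 to 12 and 13 or more gate UMIs the genotypes overlapped in this sum. In cells with 1 to 3 gate UMIs it was 11700, 11845 and 11347 CPM against 11670, 10717 and 10917 CPM, and the genotypes overlapped.

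Slfn5, a Schlafen family gene induced by type I interferon, stood at 317, 345 and 245 CPM in interferon-high cells of KO replicates 1 to 3 and 634, 566 and 497 CPM in those of WT replicates 1 to 3. The lowest WT library lay above the highest KO library. The log2 fold change was -0.84 (standard error 0.14, adjusted p = 0.00174 from edgeR). In interferon-zero cells Slfn5 stood at 52.0, 48.4 and 44.0 CPM in KO and 61.0, 50.6 and 48.6 CPM in WT, where the genotypes overlapped (log2 fold change -0.13, adjusted p = 0.331). Slfn5 was thus raised in interferon-high cells of both genotypes, and by less in KO. The difference between the genotypes in this rise was tested with an interaction term, which called 2 of 9378 genes (0.0213%), Slfn5 and Trbv17, while 497 had an unadjusted p under 0.05. For Slfn5 the interaction was -0.72 (standard error 0.14, adjusted p = 0.00839 from edgeR). That call was lost under 5 of 13 alternatives, among them a gate of 6 UMIs (adjusted p = 0.204) and the omission of KO replicate 1 (0.121) or WT replicate 2 (0.0863), while the difference within interferon-high cells was called in all 13 (log2 fold change -0.96 to -0.74).

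Slfn5 was also split by gate UMIs, and the genotypes overlapped at 0, 1 and 2 UMIs. At 4 gate UMIs it stood at 140, 168 and 174 CPM in KO and 348, 268 and 256 CPM in WT. At 13 or more it stood at 632, 731 and 458 CPM in KO and 1194, 920 and 762 CPM in WT. Every WT library lay above every KO library in the 5 bins from 3 UMIs upward, bins that come from the same mice. The nearby Slfn1, a Schlafen gene linked to T cell quiescence, stood at 578, 553 and 490 CPM in KO and 856, 763 and 630 CPM in WT and was not called (log2 fold change -0.42, adjusted p = 0.210 from edgeR). Slfn8 was not called either, with a log2 fold change of -0.56 and the same adjusted p from edgeR.

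**Figure D5:**
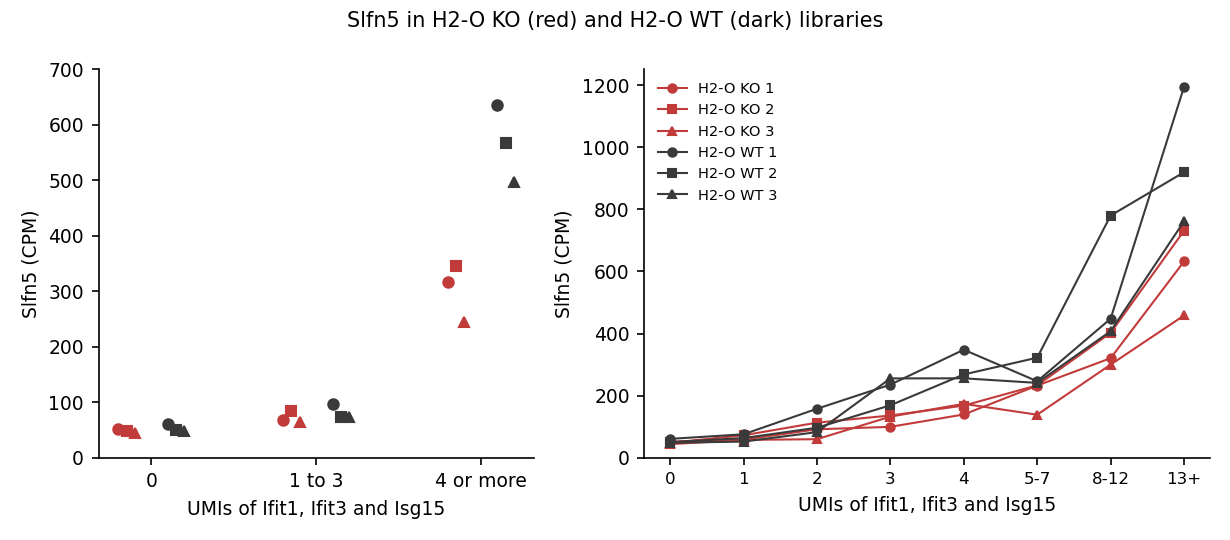
Slfn5 CPM (y axes) in each library by class of gated cell (left, 0, 1 to 3 and 4 or more gate UMIs) and by number of gate UMIs (right), red for KO and dark for WT. In interferon-high cells the KO libraries lie between 245 and 345 CPM and the WT libraries between 497 and 634 CPM, while in interferon-zero cells the genotypes overlap.

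Trbv17, the other gene of the interaction term, is named because it was called and not by a rule set earlier. It stood at 23.6, 5.52 and 14.9 CPM in interferon-high cells of KO and 171, 47.8 and 0 CPM in those of WT, and the genotypes overlapped (interaction -1.99, adjusted p = 0.0416 from edgeR). In interferon-zero cells it stood at 58.8, 42.1 and 43.1 CPM and at 56.2, 39.3 and 22.4 CPM. The value of 171 CPM came from the library with 16 interferon-high cells, and the call was lost without that library (WT replicate 1, adjusted p = 0.937 from edgeR) and under 4 more of 13 alternatives, a gate of 6 UMIs, DESeq2 and the omission of KO replicate 2 or WT replicate 2.

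B2m, H2-Q7 and the chaperone gene Hspa1b were called in interferon-high cells and in interferon-zero cells as well. B2m stood at 1666, 1600 and 1628 CPM in KO and 2316, 2218 and 2458 CPM in WT (log2 fold change -0.51, adjusted p = 0.00587 from edgeR), and at 1430, 1365 and 1441 CPM against 1769, 1785 and 1826 CPM in interferon-zero cells. H2-Q7, a nonclassical class I gene with near-identical neighbours between which reads may be split, stood at 707, 580 and 797 CPM in KO and 433, 466 and 476 CPM in WT (log2 fold change 0.57, adjusted p = 0.0479 from edgeR), and at 625 to 635 CPM against 455 to 477 CPM in interferon-zero cells. Hspa1b, an inducible HSP70 gene, stood at 3.21, 1.38 and 5.97 CPM in KO and 101, 68.0 and 254 CPM in WT (log2 fold change -5.50, adjusted p = 4.47e-07 from edgeR). These genes thus differed between the genotypes in interferon-high and in interferon-zero cells.

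Other genes called in interferon-high cells lay outside the interferon response. The glyoxalase gene Glo1 stood at 166, 145 and 146 CPM in KO and 50.4, 45.3 and 50.3 CPM in WT (log2 fold change 1.68), and its overlapping neighbour Dnah8, an axonemal dynein, had a log2 fold change of 1.90. Both also differed in interferon-zero cells. There Glo1 stood at 167, 160 and 169 CPM in KO and 57.4, 58.3 and 50.2 CPM in WT. Dnah8 stood there at 182, 162 and 186 CPM in KO and 59.0, 57.1 and 50.2 CPM in WT. Gm49719, an antisense gene, had a log2 fold change of 5.28, from 4.47 to 7.83 with each library left out. Its level was 56.7, 58.0 and 53.8 CPM in KO and 0, 0 and 2.96 CPM in WT. In interferon-zero cells it was 50.6, 57.1 and 30.5 CPM in KO and 6.72, 4.13 and 3.22 CPM in WT. For 1700097N02Rik, which overlaps Dnah8, the log2 fold change was 1.69, a call that held in 5 of 13 alternatives. Its level in interferon-zero cells was 48.3 to 67.3 CPM in KO and 18.2 to 19.7 CPM in WT. The last of the largest rises, Isg20l2, a nucleolar exonuclease that is not an interferon gene despite its name, stood at 69.6, 53.8 and 56.7 CPM against 20.1, 30.2 and 17.8 CPM (log2 fold change 1.35, adjusted p = 0.0479 from edgeR, a call that held in 3 of 13 alternatives) and at 48.0 to 53.8 CPM in interferon-zero cells of both genotypes. Its interaction was not called. The sex chromosome copies Gm21887 and Gm47283 were lower in KO, at log2 fold changes of -5.11 and -2.99, and share sequence, so their counts are uncertain. With each library left out these ran from -9.22 to -4.19 and from -3.93 to -2.29. Gm21887 stood at 0, 0 and 23.9 CPM in KO and 121, 123 and 189 CPM in WT. Gm47283 stood at 2.14, 5.52 and 23.9 CPM in KO and 101, 40.3 and 65.1 CPM in WT. For both, every KO library also lay below every WT library in interferon-zero cells. E430024P14Rik had a log2 fold change of -1.89, and its call held in 6 of 12 alternatives. Of the 23 called genes, 8 lay on chromosome 17, which also carries H2-Oa, against 254 of the 4847 compared (5.24%). Ribosomal protein genes, which enter the cell filter, made up 8 of the 17 genes called lower, of 86 compared.

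In interferon-zero cells, with many more UMIs, 611 of 10953 genes (5.58%) were called higher and 1001 (9.14%) lower in KO. These 1612 calls became 488 without KO replicate 1 and 4367 without the ribosomal protein minimum. Of the 116 interferon response genes compared there, 8 were called higher and 8 lower, shares near those of all genes, with a median log2 fold change of 0.02. Higher in KO were Isg20 (log2 fold change 0.49), Ifi27l2a (0.50), Irf7 (0.34) and Socs1 (0.32), with Ifi35, Lgals9, Ms4a4b and Ms4a4c. Lower were Ifit2 (-0.31), Samd9l (-0.28), Parp14 (-0.35) and Helz2 (-0.31), with Mndal, Tor1aip1, Rnf213 and Usp25. Of the 16 compared guanylate-binding and immunity-related GTPases, Iigp1 was called higher (0.71) and Gbp4 lower (-0.25), again near the shares of all genes. Irf7 stood at 55.2, 58.0 and 60.1 CPM in KO and 36.4, 43.9 and 53.2 CPM in WT (adjusted p = 0.0452 from edgeR, a call lost in 5 of 13 alternatives, each with 1 library left out), and Ly6a at 184, 175 and 189 CPM against 106, 83.6 and 156 CPM (log2 fold change 0.67, adjusted p = 0.0196 from edgeR). Both genotypes overlapped for these genes in interferon-high cells, and the interaction was not called for either. Large differences in interferon-zero cells were again found at the heat shock genes Hspa1a (log2 fold change -5.55) and Hspa1b (-4.92), with Ddr1, Vmn2r97 and Kremen2 lower and Gm20478 (5.52), Gm10503, Prss41 and A230059L01Rik higher. Of 15 compared stress and dissociation genes, 6 were called lower and 0 higher in KO. Ribosomal protein genes gave 20 lower and 5 higher of 95, and nuclear-retained and low-RNA transcripts 2 lower and 0 higher of 7. The part of cell handling and RNA quality in the genotype differences was not tested. H2-T3, a class I-like gene of chromosome 17, averaged 6.84 CPM in KO and had no UMI in WT.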

How the data were processed

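The deposited values were UMI counts per gene and called cell, without normalization, which the authors made with Cell Ranger 6.1.2 on mm10 per the submitters' processing notes, from 5′ libraries with 1 library per mouse. UMIs count molecules and were not divided by gene length. Cells were filtered and gated as stated above, and the filters on genes, UMIs and mitochondrial share follow the study's methods. No doublet caller was run, and doublets were limited only by the maximum of 12000 UMIs and the genes excluded. The members and gene lists were chosen with earlier results of these data known.

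UMIs were summed per library and state and tested with edgeR 4.0.16 under R 4.3.3 (quasi-likelihood test, TMM normalization, default low-count filter, Benjamini-Hochberg adjustment over all genes tested, threshold 0.05). The library was a block wherever both states were compared. The 12 genes of the gate were left out of the tests. The interaction term compared the state effect between genotypes. V segments were tested within each chain, without TMM, where a segment had at least 10 UMIs. Shares were compared by an exact permutation test over libraries. DESeq2 1.42.0, other gates, thinning, normalizations and filters, cells matched for depth, the replicate number as a block and leaving out each library were alternatives. Genes named were the listed genes, the 10 largest rises and falls between states (called, same direction in 6 libraries, at least 20 CPM) and the 5 largest of each genotype comparison whose libraries did not overlap.

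In a simulation of 2-fold changes, recovery was counted among the changed genes that passed the low-count filter. It was 82.0% between states (159 of 194, with 7 false calls among 8922 genes). Between genotypes it was 66.5% in interferon-high cells (109 of 164, 3 among 4811) and 93.3% in interferon-zero cells (180 of 193, 11 among 10938). By the interaction it was 37.1% (72 of 194, 1 among 9390). Gene positions are those of GENCODE for GRCm38 (32158 of 32285 identifiers matched) and promoters those of RefSeq (GRCm38.p6). Mx1, Mx2, Oas1b and some other listed genes were not analysed here, and some genes of the naming rule are not reported.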

Additional observations from a re-analysis of the deposited data

Results flagged for a closer look

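The rise of Slfn5 in interferon-high cells differed between the genotypes by -0.72 on the log2 scale, and that of Trbv17 by -1.99, both by the interaction term of edgeR's quasi-likelihood test. Each call was lost under 5 of 13 alternatives, a gate of 6 UMIs and DESeq2 among them in both cases. For Trbv17 the genotypes overlapped in interferon-high cells.

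A single library lay far from the other 5 in 3 of 43 sets of 6 values examined, where chance gives about 1 in 20. In interferon-high cells these were the summed B cell markers of WT replicate 1 (443 CPM, in 16 cells), the summed red cell, neutrophil and platelet markers of KO replicate 3 (3867 CPM, with 1 cell of 1390 hemoglobin UMIs) and Cmpk2 in WT replicate 1 (151 CPM).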

How the results depend on the processing

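Between the states, 257 genes were called without the library block and 424 without the ribosomal protein minimum, against 357, and 297 to 340 with each library left out. In interferon-high cells 23 genes were called between the genotypes, 14 at a gate of 6 UMIs, 15 by DESeq2, 45 with no low-count filter and 9 to 29 with each library left out (9 without KO replicate 1, 15 without WT replicate 2). In interferon-zero cells 1612 were called, 4367 without the ribosomal protein minimum and 488 to 1694 with each library left out (488 without KO replicate 1, 1015 without KO replicate 2, 766 and 772 without WT replicates 1 and 2). The interaction called 2 genes, 16 at a gate of 3 UMIs, 0 at 6 UMIs, 30 without the ribosomal protein minimum, 5 with DESeq2 size factors, 0 by DESeq2, 7 with no low-count filter and 1 to 6 with each library left out (5 without KO replicate 1, 1 without KO replicate 2, 6 without WT replicate 2 or 3). The causes were not tested. The sign changed for 2 genes that were never called between the genotypes in interferon-high cells, Usp18 at a gate of 6 UMIs (log2 fold change 0.0487) and Irf7 with 1 library left out (range -0.27 to 0.00536, above 0 without WT replicate 1 at 0.00208 or replicate 3). Of the 342 and 423 values of named genes with a library left out or a setting changed, 279 and 364 kept direction and side of the threshold. Deviations of same-numbered libraries were correlated at -0.0048 to 0.0577 in interferon-high and 0.0388 to 0.329 in interferon-zero cells, without other pairs of libraries as a reference. The main tests did not take the replicate numbers as pairs. With the replicate number as a block, 30 genes were called between the genotypes in interferon-high and 2027 in interferon-zero cells. Whether same-numbered libraries shared a batch was not tested. WT replicate 1 gave only 16 interferon-high cells, which limits the precision of its values.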

Other observations

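Among kept cells with a Zbtb16 UMI, which the gate sets aside as innate-like, 4 or more UMIs of Ifit1, Ifit3 and Isg15 were found in 3 of 53, 9 of 34 and 7 of 49 cells in KO replicates 1 to 3 and in 1 of 19, 3 of 51 and 4 of 31 cells in WT replicates 1 to 3. The shares ran from 5.26% in WT replicate 1 to 26.5% in KO replicate 2 (95% Wilson interval 14.6 to 43.1), against 5.10% of the gated cells of the latter. The median cell with a Zbtb16 UMI held 5356 to 6772 UMIs by library, more than the median interferon-zero cell in each, and the part of depth in these shares was not tested. The counts are small and the genotypes overlap.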
